A study of Homo sapiens with 9 samples.

Results

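The 8 genes HPD, TAT, HGD, FAH, TDO2, KYNU, AASS and AADAT encode enzymes that break down tyrosine, tryptophan and lysine. They were taken by name from the 57773 features counted in HepG2 cells, and 7 of them were among the 12901 genes with enough reads to be tested. TDO2 was not. At 125 µM of the flame retardant and plasticiser TBOEP, HPD and FAH mRNA rose 2.42-fold and 2.75-fold over the vehicle, while HGD, which acts between them, fell. At 2.5 µM only HPD passed the test, with a rise of 1.54-fold.

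TBOEP is tris(2-butoxyethyl) phosphate, an organophosphate, and HepG2 is an established line from a human hepatocellular carcinoma, used as a model of liver cells. The 9 libraries of polyadenylated RNA fell into 3 groups of 3: vehicle alone (0.1% DMSO, the control), 2.5 µM TBOEP and 125 µM TBOEP, the latter 2 in the same vehicle, all for 72 h. Each replicate was its own seeding, exposure, RNA isolation and sequencing reaction, per the labels' protocols, so that the spread between replicates is that between cultures of 1 tumour line and not between livers.

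Tyrosine catabolism is chiefly a liver pathway. The transaminase TAT turns tyrosine into 4-hydroxyphenylpyruvate; the dioxygenase HPD makes homogentisate from it; the dioxygenase HGD opens the aromatic ring; the isomerase GSTZ1 follows; and the hydrolase FAH releases fumarate and acetoacetate. Inherited loss of HGD causes alkaptonuria, and loss of FAH causes a hereditary tyrosinaemia. In liver, tryptophan enters the kynurenine pathway through TDO2, and kynurenine is cleaved by KYNU or transaminated by AADAT. AASS, a mitochondrial enzyme, catalyses the opening reactions of lysine breakdown through saccharopine, and AADAT acts again on its product 2-aminoadipate.

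The promoter stretches of HPD and FAH are shown because these were the members that rose most. Of the 8 genes, 6 had an entry in the RefSeq promoter table (GRCh38.p14); TAT and HGD had none. Each stretch is the longest part of the 250 bases before a start that held no annotated UTR, and its position was found by an exact match to GRCh37. Capitals mark GC boxes (GGGCGG), and the nuclear receptor half-site AGGTCA, which reads TGACCT where it lies on the other strand. For HPD the start inside the deposited gene was used, and the stretch lies at chr12:122296766-122296830 on the minus strand. FAH had 2 starts, and the longer stretch is shown, at chr15:80444888-80445121 on the plus strand. The stretch of the other start, 31 bases with 1 GC box, lies within it.
HPD: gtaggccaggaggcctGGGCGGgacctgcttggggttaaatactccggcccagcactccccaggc
FAH: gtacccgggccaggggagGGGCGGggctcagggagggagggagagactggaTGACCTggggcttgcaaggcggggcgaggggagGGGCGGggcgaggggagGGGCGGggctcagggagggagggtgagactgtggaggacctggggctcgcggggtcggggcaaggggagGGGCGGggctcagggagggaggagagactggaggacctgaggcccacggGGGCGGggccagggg

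Both stretches were rich in G and C, at 67.7% of 65 bases for HPD and 76.5% of 234 bases for FAH. HPD held 1 GC box, 49 to 44 bases before its start, which 24.5% of the 34788 promoters in the table matched in the same window. FAH held 5 GC boxes, and 3.55% of promoters held as many in the window that FAH was read over, while 41.2% held at least 1. The half-site of FAH, 192 to 187 bases before the start, was matched by 11.4% of promoters. Both strands were searched, and the motifs did not overlap one another. Neither stretch held the C/EBP-ATF composite element TGATGNAA. Other motifs searched with no match were the TATA box in its form TATAAA, the box of promoters that is named after its letters CCAAT, and the forkhead site, searched as TGTTTAC. These matches describe the sequence alone, and the promoters compared were not matched for their share of G and C.

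Depth ran from 2480964 to 11885877 reads in genes per library, so that 3 reads stood for between 0.252 and 1.21 CPM (counts-per-million, scaled to library size), depending on the library. The first principal component held 53.5% of the variance; on it replicate 3 of 2.5 µM stood at 17.7 beside −9.28 and −9.08 for the other 2, and control replicate 1 stood at −50.0 beside −24.8 and −34.6. Results that rest on these libraries are also given without them. A gene passed the test where its p, adjusted over the 12901 tested genes, was under 0.05. Hepatocyte markers were all detected, 11 of 11, but their summed level was lower at 125 µM (48722 to 54295 CPM) than in the control (71489 to 94622 CPM), with 64459 to 75349.7 CPM at 2.5 µM. Bile duct markers, 3 of 4 tested and none at 0, ran the other way, from 272 to 306 CPM in the control to 372 to 417 CPM at 125 µM. PECAM1 and KDR of endothelium, PTPRC and CD3E of leukocytes, and COL1A2 and DCN of fibroblasts had 0 reads in every library. The summed level of the 4 endothelial markers was at most 3.46 CPM. That of the 4 leukocyte markers, 2 of them tested, was 1.03 to 5.14 CPM in the control, 3.16 to 6.87 CPM at 2.5 µM and 6.97 to 8.01 CPM at 125 µM. That of the 4 fibroblast markers, 1 of them tested, was 20.0 to 23.9 CPM, 18.2 to 26.8 CPM and 9.63 to 13.6 CPM. Reads in the leukocyte sum came from CD68 and CD14 alone, and those in the fibroblast sum from COL1A1 and PDGFRB alone. The sums of both lists did not overlap between control and 125 µM, as was so for 50.9% of single tested genes. The part of these markers in the results that follow was not tested, and in bulk RNA fewer cells of a kind and less RNA per cell cannot be told apart.

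Among the tyrosine enzymes, HPD showed the clearest graded change. Its level in the control was 136, 172 and 168 CPM in replicates 1 to 3, from 1296, 871 and 656 reads. It was 230.5, 237 and 268 CPM at 2.5 µM and 364, 407 and 376 CPM at 125 µM, from 2410, 2549 and 663 and from 2998, 4900 and 1023 reads. Every 2.5 µM culture was above every control, and every 125 µM culture was above every 2.5 µM culture. The means were 159 ± 20.0, 245 ± 20.0 and 382 ± 22.1 CPM (SD, n = 3 each).

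HPD rose at 125 µM by 1.27 ± 0.10 on the log2 scale (SE; edgeR quasi-likelihood test over all 9 libraries, adjusted p = 1.78e-06), or 2.42-fold. It rose at 2.5 µM by 0.63 ± 0.10 (adjusted p = 0.00635), or 1.54-fold. Both comparisons used the same 3 controls. Between the doses it rose by 0.65 ± 0.10 (adjusted p = 0.000769), or 1.57-fold. Without replicate 3 of 2.5 µM the rise at 2.5 µM was 0.57 (adjusted p = 0.0235), and without control replicate 1 it was 0.52 (adjusted p = 0.0244). The call at 2.5 µM was lost on the deposited RPKM and quantile-normalised values, where limma gave changes of 0.64 to 0.65 with adjusted p of 0.0518 to 0.0578. HPD lies at chr12:122277433-122301502 on hg19, on the minus strand, and its reads were nearly all exonic, with 0.880 to 1.81% in introns.

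**Figure D1:**
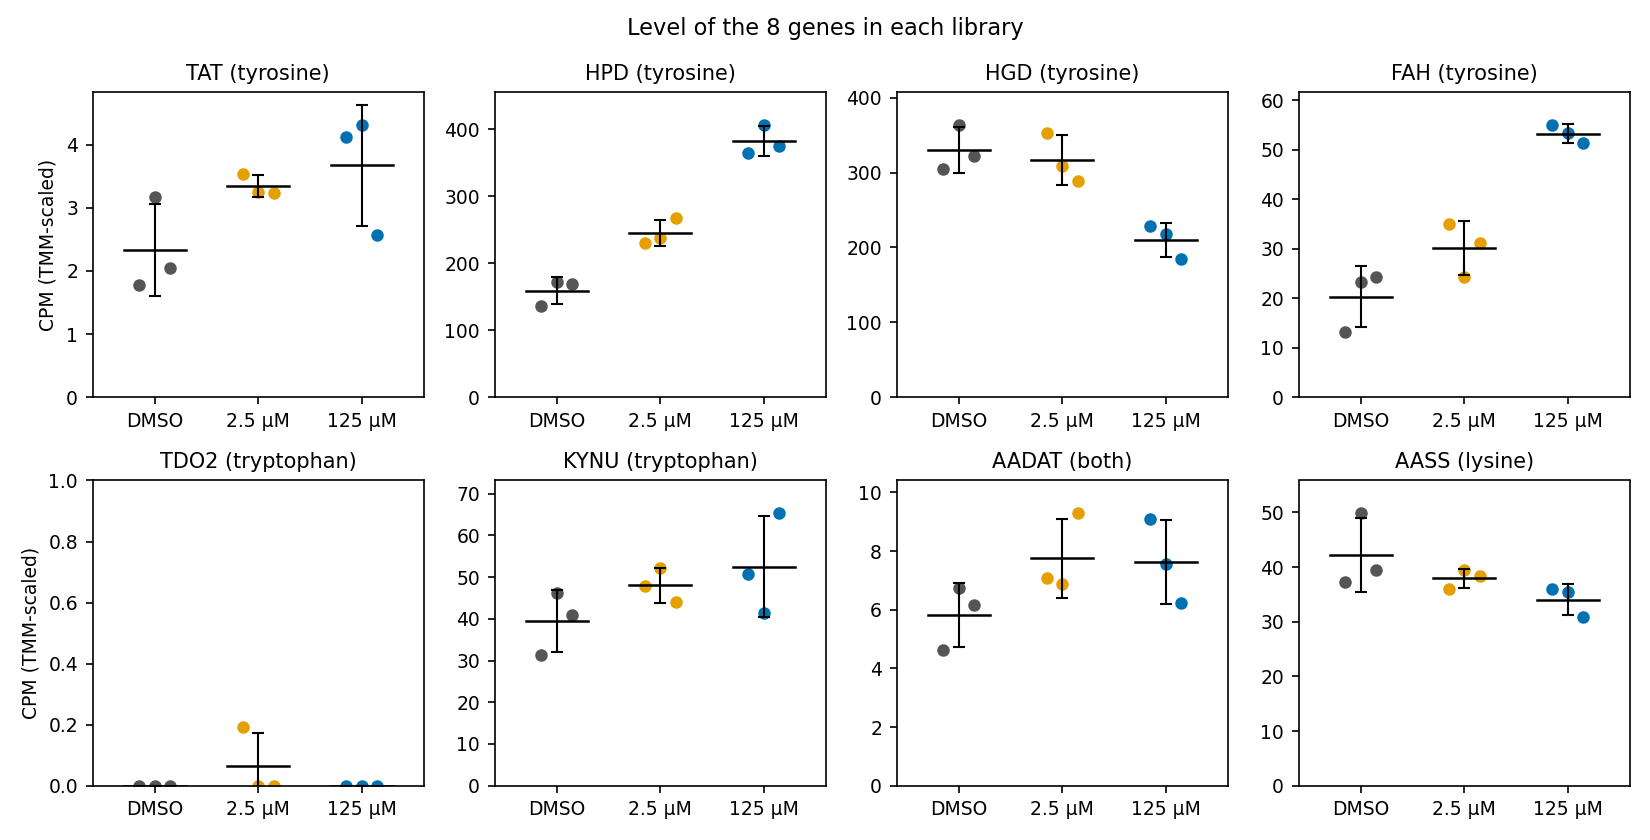
Level of each of the 8 genes in every library, in CPM scaled by TMM (y axis, from 0, its own range in each panel), for the DMSO control, 2.5 µM and 125 µM TBOEP. Points are libraries, horizontal bars are means and error bars are SD (n = 3); HPD rises from 136 to 172 CPM in the control to 364 to 407 CPM at 125 µM, HGD drops to 185 to 228 CPM, and TDO2 has reads in 1 library alone.

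HGD, the enzyme after HPD, went the other way at 125 µM. Its level in the control was 304, 364 and 322 CPM, from 2902, 1840 and 1257 reads. At 2.5 µM it was 354, 309 and 289 CPM, within and just below the control range. At 125 µM it was 228, 218 and 185 CPM, from 1882, 2629 and 504 reads, below every culture of the other groups. HGD fell at 125 µM by 0.64 ± 0.10 on the log2 scale (adjusted p = 0.000285), which is 1.56-fold lower, and between the doses it fell by 0.59 ± 0.10 (adjusted p = 0.00194). At 2.5 µM the difference from control was −0.05 ± 0.10 (95% interval −0.27 to 0.17, adjusted p = 0.782).

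Introns held 43.1 to 54.0% of HGD reads across the 9 libraries. The pooled share of 48.6% ranked at the 87.3 percentile of tested genes, whose median was 8.27%. Exon reads alone gave HGD 169 ± 2.37 CPM in the control, 165 ± 9.92 CPM at 2.5 µM and 108 ± 9.07 CPM at 125 µM (SD, n = 3). On exon reads the fall at 125 µM was 0.70 ± 0.09 (adjusted p = 2.68e-05). Intron reads fell beside them, from 161 ± 31.4 to 102 ± 15.2 CPM, and the intron share in the gene hardly moved, at 48.5 ± 4.84% and 48.5 ± 2.70%. Over all nuclear genes the intron share was 6.87 ± 0.63% in the control, 6.00 ± 1.52% at 2.5 µM and 5.23 ± 0.30% at 125 µM. HGD spans chr3:120347020-120401418 on hg19, minus strand, with no overlapping gene that held reads.

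**Figure D2:**
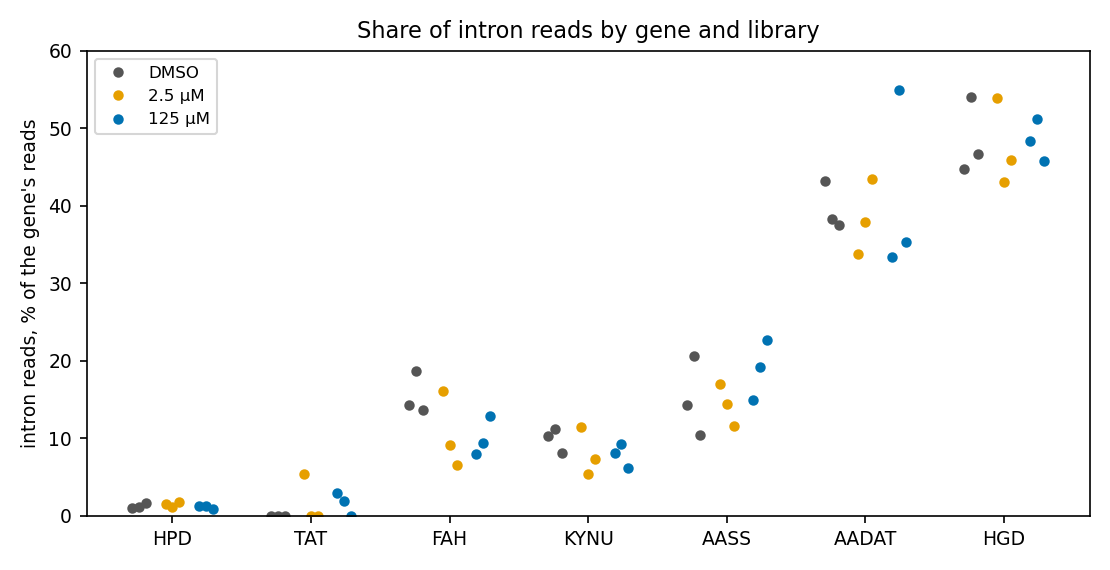
Share of each tested gene's reads that fell in introns (y axis, percent of the gene's reads), by gene (x axis), with 1 point per library colored by group. HGD (43.1 to 54.0%) and AADAT (33.3 to 54.9%) lie above the other genes in every library, and HPD stays at or below 1.81%.

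FAH, the last enzyme of the route, had the largest fold change of the 7 tested members at 125 µM. In the control it was 13.2, 23.3 and 24.4 CPM, from 126, 118 and 95 reads. It was 35.0, 24.4 and 31.1 CPM at 2.5 µM and 55.1, 53.4 and 51.4 CPM at 125 µM, the latter from 454, 643 and 140 reads. The 125 µM cultures were above all others, whereas replicate 2 of 2.5 µM fell within the control range. FAH rose at 125 µM by 1.46 ± 0.19 on the log2 scale (adjusted p = 5.05e-05), or 2.75-fold, and between the doses by 0.84 ± 0.18 (adjusted p = 0.00607). Without control replicate 1 the rise of FAH at 125 µM was 1.16 (adjusted p = 8.90e-05), level with that of HPD (1.16, adjusted p = 4.01e-06). The rank of FAH above HPD thus rested on that library.

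At 2.5 µM the difference of FAH from control was 0.63 ± 0.20 (95% interval 0.21 to 1.04, adjusted p = 0.0521) and did not pass the test. This value rested on single libraries. It passed without control replicate 2 (0.78, adjusted p = 0.0219) and without replicate 2 of 2.5 µM (0.79, adjusted p = 0.0279), and was 0.33 without control replicate 1 (adjusted p = 0.287). DESeq2 gave 0.60 with adjusted p = 0.0294, and exon reads gave 0.68 with adjusted p = 0.0282. Between the doses the call was lost on the deposited RPKM and quantile-normalised values (0.80 to 0.86, adjusted p of 0.0658 to 0.0879). FAH lies at chr15:80444832-80479288 on hg19, on the plus strand.

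TAT, which starts tyrosine breakdown in liver, was close to the limit of these libraries. It had 17, 16 and 8 reads in the control, 37, 35 and 8 at 2.5 µM, and 34, 52 and 7 at 125 µM. Those are 1.78, 3.17 and 2.05 CPM, then 3.54, 3.25 and 3.23 CPM, then 4.13, 4.32 and 2.57 CPM. Replicate 3 of 125 µM lay inside the control range, while all the 2.5 µM cultures lay above it. TAT rose at 125 µM by 0.80 ± 0.29 on the log2 scale (adjusted p = 0.0390), or 1.74-fold, and at 2.5 µM differed by 0.58 ± 0.30 (adjusted p = 0.224).

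The call on TAT was lost in 11 of 21 alternative analyses (other scaling, filters, tests or units, or a library left out), with adjusted p of up to 0.230. It was lost without control replicate 1 (0.56, adjusted p = 0.230), control replicate 3 (0.76, adjusted p = 0.0911), replicate 1 of 125 µM (0.76, adjusted p = 0.107) or replicate 2 of 125 µM (0.68, adjusted p = 0.174). DESeq2 gave an adjusted p of 0.160 and exon reads 0.0547. The gene lies at chr16:71599563-71611033 on hg19, minus strand, and overlaps RP11-432I5.1, a feature with 6 reads in all.

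Of the 7 tested members, 4 passed at 125 µM against control, beside 40.2% of all tested genes. HPD, TAT and FAH were the 3 that rose, beside 20.3% of all genes, and HGD the 1 that fell, beside 19.9%. At 2.5 µM HPD alone passed, 1 of 7 beside 11% of all genes, of which 6.02% rose and 5.03% fell. Between the doses 3 of 7 passed beside 14.9%, with HPD and FAH rising, beside 7.48%, and HGD falling, beside 7.44%. Groups did not overlap for 4 of 7 at 125 µM, beside 50.9% of all genes, for 3 of 7 at 2.5 µM, beside 28.2%, and for 4 of 7 between the doses, beside 32.8%. The median log2 change of the 7 was 0.48 at 125 µM and 0.38 at 2.5 µM against control, and 0.09 between the doses; over all tested genes the medians were 0.00356, −0.00528 and −0.00231.

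**Figure D3:**
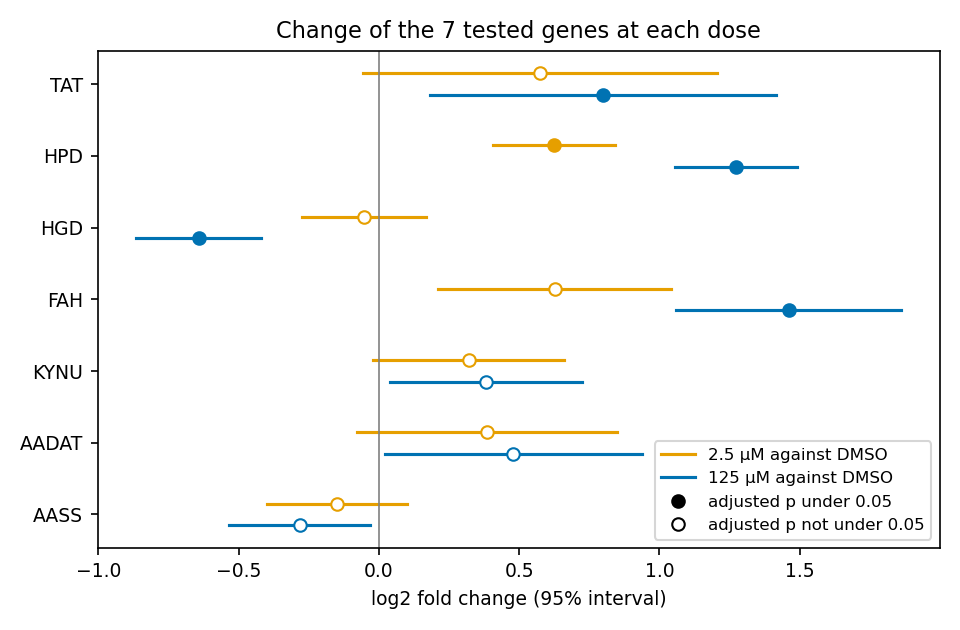
Log2 fold change against the DMSO control (x axis) of the 7 tested genes at 2.5 µM and 125 µM TBOEP, with 95% intervals; filled points have an adjusted p under 0.05 (edgeR). HPD is filled at both doses, TAT, HGD and FAH at 125 µM alone, and HGD is the filled point below 0; both doses share the 3 controls.

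In the kynurenine arm no member passed the test. TDO2, the liver enzyme that opens the indole ring of tryptophan, had 2 reads in replicate 1 of 2.5 µM and 0 in the other 8 libraries. A count of 0 over the 19007882 control reads allows up to 0.158 CPM (of all gene reads), and over the 22663154 reads at 125 µM up to 0.132 CPM (3 reads of the total; counting error only). No difference between groups was detectable for TDO2 at this depth. The gene spans chr4:156775890-156841558 on hg19, plus strand. IDO1 and IDO2, which catalyse the same step, had 0 reads in all 65450192, which allows up to 0.0458 CPM.

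KYNU, which cleaves kynurenine and its hydroxylated form, was 31.5, 46.1 and 41.0 CPM in the control. It was 47.8, 52.2 and 44.03 CPM at 2.5 µM and 50.8, 41.3 and 65.3 CPM at 125 µM. Both treated groups overlapped the control, and the cultures at 125 µM were spread widest (SD 12.1 CPM beside 7.44 CPM). The difference from control was 0.38 ± 0.16 at 125 µM (95% interval 0.04 to 0.72, adjusted p = 0.0694) and 0.32 ± 0.16 at 2.5 µM (adjusted p = 0.210). At 125 µM it passed without control replicate 2 (0.52, adjusted p = 0.0232), without replicate 2 of 125 µM (0.55, adjusted p = 0.0218) and with no filter on low counts (0.39, adjusted p = 0.00665). It was smaller without control replicate 1 (0.21, adjusted p = 0.353) and without replicate 3 of 125 µM (0.24, adjusted p = 0.240). KYNU lies at chr2:143635067-143799890 on hg19, plus strand.

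AADAT, shared by the tryptophan and lysine routes, was low, with 17 to 91 reads per library. Its level was 4.61, 6.73 and 6.16 CPM in the control, 7.08, 6.88 and 9.29 CPM at 2.5 µM, and 9.10, 7.55 and 6.24 CPM at 125 µM. The 2.5 µM cultures were all above the control, and at 125 µM replicate 3 was inside the control range. The differences from control were 0.38 ± 0.22 at 2.5 µM (adjusted p = 0.269) and 0.48 ± 0.21 at 125 µM (95% interval 0.02 to 0.94, adjusted p = 0.0884). Without control replicate 2 the latter passed, at 0.62 (adjusted p = 0.0493). It was 0.28 without control replicate 1 (adjusted p = 0.399) and 0.17 on quantile-normalised values (adjusted p = 0.663). Introns held 40.6% of AADAT reads over all libraries, and on exon reads the difference at 125 µM was 0.35 ± 0.28 (adjusted p = 0.339). AADAT lies at chr4:170981373-171012850 on hg19, minus strand.

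AASS, the lysine enzyme, was 37.3, 49.9 and 39.5 CPM in the control and 36.1, 39.4 and 38.4 CPM at 2.5 µM. At 125 µM it was 35.9, 35.4 and 30.8 CPM, below every other culture by a small margin. The difference at 125 µM was −0.28 ± 0.12 (95% interval −0.53 to −0.03, adjusted p = 0.0691), and at 2.5 µM it was −0.15 ± 0.12 (adjusted p = 0.443). AASS passed at 125 µM on exon reads (−0.39 ± 0.12, adjusted p = 0.0143), on quantile-normalised values (−0.45, adjusted p = 0.0279) and without control replicate 1 (−0.38, adjusted p = 0.0319), whereas without control replicate 2 the difference was −0.14 (adjusted p = 0.338). It lies at chr7:121715701-121784334 on hg19, minus strand. Between the doses KYNU, AADAT and AASS differed by 0.06 ± 0.16, 0.09 ± 0.20 and −0.13 ± 0.12 on the log2 scale, with adjusted p of 0.837, 0.809 and 0.493.

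Compared per length, as deposited RPKM (exon reads scaled by exon length and depth), the 8 genes covered a wide range. In the control HPD averaged 67.9 ± 10.7 RPKM and HGD 54.7 ± 2.14 RPKM, and their ranges met (56.1 to 77.0 and 52.4 to 56.7 RPKM). KYNU at 11.2 ± 2.49 RPKM and AASS at 7.51 ± 1.11 RPKM also overlapped. FAH at 2.35 ± 0.744 RPKM, AADAT at 1.15 ± 0.302 RPKM and TAT at 0.420 ± 0.150 RPKM followed in that order with no overlap between neighbours, and TDO2 was at 0. At 125 µM HPD reached 169.8 ± 9.38 RPKM and HGD was 36.4 ± 3.00 RPKM, so that the ranges no longer met. FAH, at 6.81 ± 0.409 RPKM, then overlapped AASS, at 6.05 ± 0.741 RPKM. The exon length behind each value is the union over annotated transcripts, 7063 bases for FAH and 2232 for HPD, which lowers the value of a gene whose main transcript is short.

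The ratio of HPD to HGD within a library joins both changes. It was 1.07, 1.36 and 1.29 in the control, 1.86, 1.78 and 2.25 at 2.5 µM, and 4.07, 5.04 and 4.96 at 125 µM, with no overlap between groups. The ratio of FAH to HGD was 0.0285, 0.0479 and 0.0517 in the control, 0.0760, 0.0531 and 0.0786 at 2.5 µM, and 0.181, 0.192 and 0.189 at 125 µM, again with no overlap. These ratios restate the changes given above for the same genes, so that their separation at 125 µM adds no further support. At 2.5 µM the lowest ratio of FAH to HGD, 0.0531, was just above the highest in the control, 0.0517. The ratios were given no test.

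**Figure D4:**
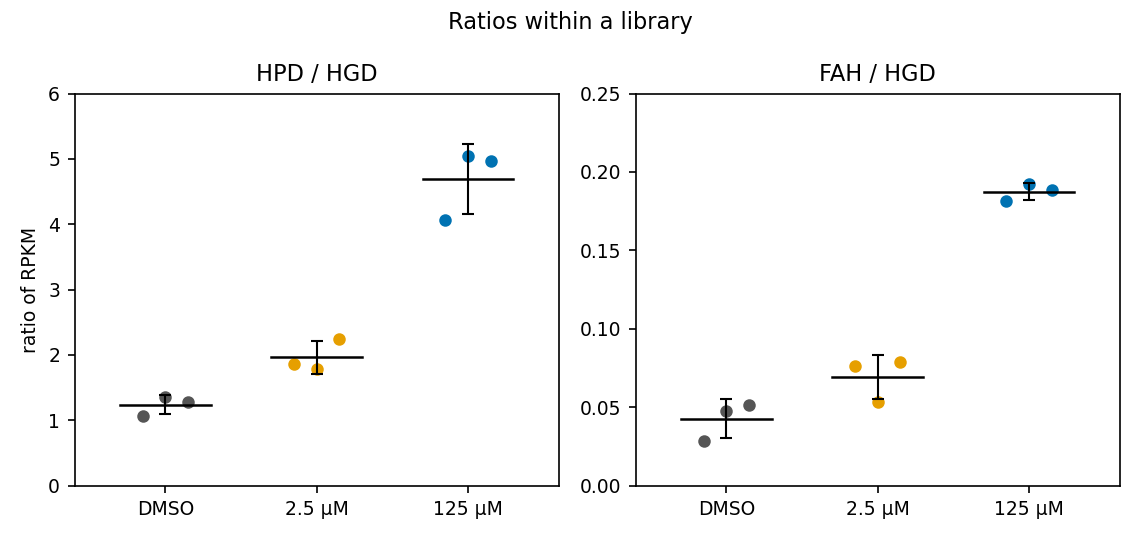
Ratio of deposited RPKM values within each library (y axes, linear, from 0) for HPD over HGD (left) and FAH over HGD (right), by group; points are libraries, horizontal bars means and error bars SD (n = 3). HPD over HGD goes from 1.07 to 1.36 in the control to 4.07 to 5.04 at 125 µM, and FAH over HGD from 0.0285 to 0.0517 up to 0.181 to 0.192.

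The wider phenylalanine and tyrosine list, read here over 13 genes with 11 of them tested, had 7 rises and 2 falls at 125 µM, beside 20.3% and 19.9% of all tested genes, with a median log2 change of 0.51 beside 0.00356 over all genes. Beside the members, GOT1, the cytosolic aspartate aminotransferase, which can also transaminate tyrosine, rose by 1.08 ± 0.08 (adjusted p = 1.02e-06), from 90.4 ± 4.89 to 192 ± 1.70 CPM. HGD thus moved opposite to GOT1, HPD and FAH along 1 route. GOT2, the mitochondrial form, rose by 0.33 ± 0.09, from 89.8 ± 6.76 to 113 ± 6.02 CPM. GSTZ1, which acts between HGD and FAH, rose by 0.79 ± 0.17, from 7.86 ± 1.24 to 13.1 ± 1.16 CPM.

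Genes for tetrahydrobiopterin, an enzyme cofactor, were split. PCBD1, which helps to regenerate it, rose by 0.51 ± 0.09 at 125 µM, from 57.2 ± 6.04 to 80.5 ± 5.27 CPM. GCH1, which starts its synthesis, fell by 0.41 ± 0.12, from 30.0 ± 3.32 to 23.4 ± 2.64 CPM. QDPR and PTS did not pass, and HPDL and IL4I1 had 9 and 2 reads in all and were not tested. The call on GCH1 was lost without control replicate 1 (−0.30, adjusted p = 0.113), replicate 1 of 125 µM (−0.36, adjusted p = 0.0790) or replicate 2 of 125 µM (−0.36, adjusted p = 0.0888). It was also lost on RPKM, where the change was −0.21 to −0.20 (adjusted p of 0.137 to 0.145). GSTZ1 overlaps POMT2, another tested gene, and is uncertain to the extent that they share reads.

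At 2.5 µM this list had 2 rises, HPD and GSTZ1, and no fall among 11, beside 6.02% and 5.03% of all tested genes. GOT1 was 108 ± 1.96 CPM there, a difference of 0.24 ± 0.08 that did not pass (adjusted p = 0.0585). GSTZ1 was 12.7 ± 1.99 CPM there, a rise of 0.67 ± 0.18 (adjusted p = 0.0268). That call was lost in 6 of 21 alternatives. It was lost without control replicate 1 (0.54, adjusted p = 0.170) or replicate 3 of 2.5 µM (0.59, adjusted p = 0.0777). The GSTZ1 call was also lost with only the 2 groups compared (0.68, adjusted p = 0.0568). The same held on RPKM and quantile-normalised values (adjusted p of 0.0551 to 0.0615). Between the doses PCBD1, GOT1, HPD and FAH rose and HGD fell, beside 7.48% and 7.44% of all tested genes, with GOT1 at 0.84 ± 0.08. PCBD1 lost that call without replicate 1 of 125 µM (0.38, adjusted p = 0.0536) or replicate 2 of 125 µM (0.35, adjusted p = 0.0779). The PCBD1 call was also lost on RPKM with a pseudocount of 0.1 (0.43, adjusted p = 0.0530) and on quantile-normalised values (0.37, adjusted p = 0.0561).

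**Figure D5:**
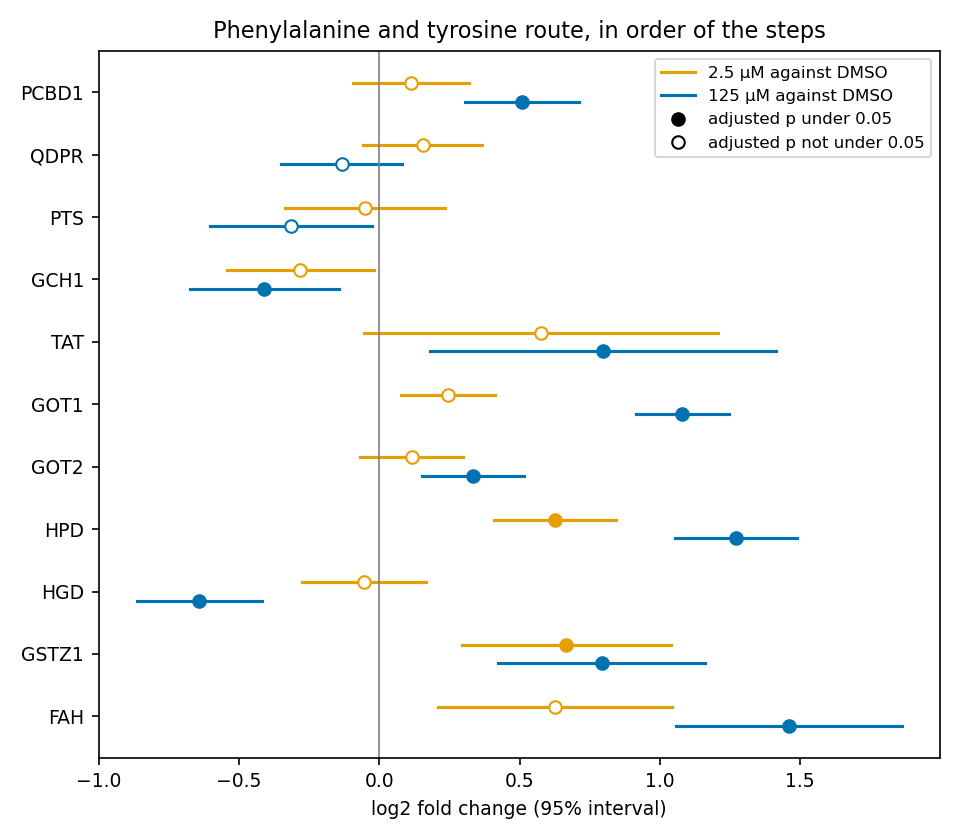
Log2 fold change against the DMSO control (x axis) for the 11 tested genes of the phenylalanine and tyrosine list, with the cofactor genes first and then the route down to FAH, with 95% intervals; filled points have an adjusted p under 0.05 (edgeR). At 125 µM GCH1 and HGD lie below 0 and PCBD1, TAT, GOT1, GOT2, HPD, GSTZ1 and FAH above it; both doses share the 3 controls.

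The kynurenine list of 12 genes had 7 tested. At 125 µM AFMID, which frees kynurenine from its formyl form, fell by 0.44 ± 0.08 (adjusted p = 0.000703), from 165 ± 7.25 to 121 ± 6.37 CPM, and no gene rose. That is 1 of 7 called, beside 40.2% of all tested genes, and the median log2 change of the 7 was −0.11. At 2.5 µM the edgeR test called 0 of 7, beside 11% of all tested genes, with 0 at an unadjusted p under 0.05, and DESeq2 called 0 as well. Between the doses 2 of 7 were called, beside 14.9% of all tested genes. AFMID fell by 0.28 ± 0.08 (adjusted p = 0.0342) and CCBL1, a kynurenine aminotransferase, fell by 0.59 ± 0.17 (adjusted p = 0.0322); CCBL1 overlaps LRRC8A and is uncertain to that extent. The AFMID call between the doses was lost without replicate 1 (−0.30, adjusted p = 0.0773), replicate 2 (−0.30, adjusted p = 0.0883) or replicate 3 (−0.24, adjusted p = 0.123) of 125 µM, and without replicate 1 (−0.23, adjusted p = 0.102) or replicate 2 (−0.30, adjusted p = 0.0682) of 2.5 µM. It was also lost with no filter on low counts (−0.27, adjusted p = 0.0662), and on RPKM and quantile-normalised values (adjusted p of 0.0531 to 0.0625). The CCBL1 call was lost without replicate 1 of 2.5 µM (−0.34, adjusted p = 0.194), without replicate 1 (−0.58, adjusted p = 0.100), replicate 2 (−0.68, adjusted p = 0.0697) or replicate 3 (−0.53, adjusted p = 0.0904) of 125 µM, and on RPKM and quantile-normalised values (adjusted p of 0.0747 to 0.108). KMO, the hydroxylase of the pathway, had 7 reads in all and ACMSD none.

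All 12 genes of the lysine list were tested. At 125 µM 2 rose and 1 fell, beside 20.3% and 19.9% of all tested genes, and the median log2 change was 0.25. DHTKD1, a subunit of the 2-oxoadipate dehydrogenase, rose by 0.94 ± 0.16 (adjusted p = 0.000364), from 13.5 ± 1.89 to 26.4 ± 3.75 CPM. DLD, the dihydrolipoamide dehydrogenase that several such complexes share, rose by 0.31 ± 0.10 (adjusted p = 0.0195), from 59.9 ± 4.81 to 74.3 ± 6.57 CPM. PHYKPL, an enzyme of phosphohydroxylysine breakdown, fell by 0.43 ± 0.16 (adjusted p = 0.0474), and its call was lost in 12 of 21 alternatives, 6 of which left out a library: control replicate 1 (−0.20, adjusted p = 0.374), control replicate 3 (−0.49, adjusted p = 0.0509), replicates 1 to 3 of 125 µM (−0.43, −0.49 and −0.37, adjusted p of 0.106, 0.0814 and 0.126) and replicate 3 of 2.5 µM (−0.43, adjusted p = 0.0506). Introns held 50.2 ± 1.28% of PHYKPL reads in the control and 41.8 ± 1.24% at 125 µM (SD). On exon reads its difference at 125 µM was −0.28 ± 0.18 (adjusted p = 0.215). On RPKM it was −0.13 to −0.10 (adjusted p of 0.584 to 0.590). DESeq2, upper-quartile scaling and quantile-normalised values gave an adjusted p of 0.0601, 0.0579 and 0.218. The call on DLD was lost without control replicate 1 (0.24, adjusted p = 0.106), replicate 2 of 125 µM (0.32, adjusted p = 0.0528) or replicate 3 of 125 µM (0.25, adjusted p = 0.0696). DLD overlaps LAMB1 and PHYKPL overlaps HNRNPAB, both tested genes.

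At 2.5 µM ALDH7A1, the aminoadipate semialdehyde dehydrogenase, was the 1 of 12 lysine genes that rose, beside 6.02% of all tested genes, by 0.34 ± 0.10 (adjusted p = 0.0489), from 84.9 ± 13.0 to 107 ± 5.08 CPM. That call was lost in 15 of 21 alternatives, and among these without any single library other than control replicate 2 (adjusted p of 0.0611 to 0.259). The change was 0.21 without control replicate 1. Between the doses DHTKD1 was the 1 of 12 called, beside 14.9% of all tested genes. It rose by 0.54 ± 0.15 (adjusted p = 0.0281), a call lost in 6 of 21 alternatives. The call was lost without replicate 2 of 2.5 µM (0.40, adjusted p = 0.151), replicate 2 of 125 µM (0.54, adjusted p = 0.101) or replicate 3 of 125 µM (0.46, adjusted p = 0.0902). It was also lost on RPKM and quantile-normalised values (adjusted p of 0.0925 to 0.110).

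Across the 9 libraries, which share the same dose groups and differ in depth, log2 CPM of HPD ran with that of FAH (Pearson r of 0.95) and against that of HGD (r of −0.81). The genes most like HPD were FERMT1, ITGB5 and MPZL2 (r of 0.99 for each). Those most like FAH were LINC00116, TNRC6C-AS1 and SHC1 (r of 0.98 for each). C1RL-AS1, C8A and NR2F1-AS1 were most like HGD (r of 0.97 for each), and C8A, a complement component made by liver, went from 30.5 CPM in the control to 13.6 CPM at 125 µM. WDR35, PRIM1 and NBPF10 were most like TAT (r of 0.96, 0.96 and 0.95). Reads of the genes with AS in their names cannot be told from those of their partners where counting ignored strand.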

How the data were processed

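In 9 HepG2 cultures, RNA was sequenced from TruSeq Stranded mRNA libraries. The authors mapped reads to hg19 (submitters' processing notes) and assigned them to genes in CLC Genomics Workbench, as the series' design text states; neither its version nor its use of strand is given in the sources used here. Deposited counts (total, unique, exon and intron reads of a gene) carry no normalisation, per the file headers. RPKM as deposited divide exon reads by exon length and library depth. The deposited normalised signal is the authors' quantile normalisation, as the design text states.

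Reads per gene, exonic and intronic, were filtered with filterByExpr, scaled by TMM and tested with edgeR 4.0.16 (quasi-likelihood, R 4.3.3) in 1 fit of 3 groups over the 9 libraries. Contrasts were two-sided. P-values were adjusted by Benjamini and Hochberg's method over 12901 genes, with 0.05 as the threshold; CPM use TMM sizes, and SE and 95% intervals come from that fit. The common biological coefficient of variation was 10.0%. The steps were tested on simulated counts. The 21 alternatives used other scaling, filters, reads or designs, DESeq2 1.42.0, limma 3.58.1 on log2 of deposited values with pseudocounts of 0.5 or 0.1, and each library left out.

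The members and lists were chosen with earlier results of these data known; 1 gene of the tyrosine list is not reported here. Every member is named; other genes of the 3 lists are named where they passed the threshold against control, as are, for each member past it at 125 µM, the 3 genes of highest Pearson r. CCBL1, which passed between the doses alone, QDPR and PTS, which passed in no comparison, and the untested list genes were named after their values were seen. Start positions have 1 added to the files' value, because 68.9% of 33599 features found in GENCODE v44 then had its start, beside 1.15% as written.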

Additional observations from a re-analysis of the deposited data

How the results depend on the processing

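The changes of HPD, FAH and HGD at 125 µM against control kept their direction and stayed past the threshold in all 21 alternatives, as did those of HPD and HGD between the doses. Leaving out 1 library at a time gave 1 to 2 members called at 2.5 µM, 213 to 2050 genes called at 2.5 µM and 799 to 2230 between the doses; the low counts came without control replicate 1 (213), control replicate 3 (707) and replicate 3 of 2.5 µM (468), and without replicates 1, 2 and 3 of 125 µM (1043, 799 and 1252) and replicate 2 of 2.5 µM (1015). Fitting only the 2 groups compared called 731 genes at 2.5 µM. Members called at 2.5 µM were 2 with the DESeq2 Wald test, upper-quartile scaling, no filter (2092 genes) or exon reads, FAH being the added one. They were 0 with limma on RPKM (either pseudocount) and on quantile-normalised values, each with 2 at an unadjusted p under 0.05. There, genes called at 2.5 µM were 176 (RPKM, pseudocount 0.5), 6 (pseudocount 0.1) and 0 (quantile-normalised, with 3279 at an unadjusted p under 0.05), beside 1425 by edgeR and 1244 by DESeq2, and between the doses 1066, 891 and 849. On RPKM with a pseudocount of 0.5, 66.6% of the calls at 125 µM were higher, beside 50.5% in edgeR. The shares were 75.6% beside 54.5% at 2.5 µM and 68.7% beside 50.1% between the doses. The median log2 change of all genes at 125 µM was 0.0851 with that pseudocount and 0.107 with one of 0.1, beside 0.00356 in edgeR. Small differences that did not pass changed sign, and the cause was not tested: HGD at 2.5 µM (0.000424 on quantile-normalised values, 0.027 without control replicate 2, 0.011 without replicate 3 of 2.5 µM, and −0.14 to 0.027 over the left-out libraries), and between the doses AADAT (−0.072 on exon reads, −0.054 and −0.073 on RPKM with pseudocounts of 0.5 and 0.1, −0.21 on quantile-normalised values, −0.049 without replicate 1 of 125 µM, and −0.049 to 0.17 over the left-out libraries), GCH1 (0.035 and 0.036 on RPKM with those pseudocounts), KYNU (−0.081 without replicate 3 of 125 µM, range −0.081 to 0.23) and PHYKPL (0.018 without replicate 1 of 2.5 µM, range −0.28 to 0.018). Replicate numbers showed no clear pairing of the cultures, in a check that could miss a weak one. Correlations of same-numbered deviations ran from −0.241 to 0.184 (4 of 9 over 0.1). Those of other-numbered ones ran from −0.268 to 0.268 (4 of 18 over 0.1). In each group replicate 3 had the fewest reads and replicate 1 the highest intron share. With the number as a replicate block 5066, 1274 and 1771 genes were called at 125 µM, 2.5 µM and between the doses. TAT then had an adjusted p of 0.0596 at 125 µM and ALDH7A1 0.0595 at 2.5 µM. TAT, AADAT and TDO2 are limited by depth, with at most 91 reads in any library.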
